A study of Mus musculus with 30 samples.

Results

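Matrix proteases and their inhibitors were taken as the 82 protein-coding genes, of 36558 Ensembl gene IDs in the count table, whose symbol is Mmp, Adam, Adamts, Adamtsl or Timp followed by a number and at most 1 letter. The pattern matched 84 IDs, of which 1 is not annotated as protein-coding and 1 was left out by the rule. The members fall into 21 matrix metalloproteinases (Mmp), 33 disintegrin metalloproteinases (Adam), 19 with thrombospondin repeats (Adamts), 5 Adamts-like proteins (Adamtsl) and 4 tissue inhibitors (Timp). No measured value entered this choice.

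The Mmp enzymes cut collagens, elastin and other matrix proteins, and several are anchored in the cell membrane. Many Adam proteins shed the outer parts of membrane proteins such as Notch, cytokine precursors and growth factors, while Adamts enzymes cut proteoglycans and trim procollagens. Adamtsl proteins resemble the Adamts enzymes outside their catalytic part and bind microfibrils. Timp proteins block the active site zinc of these enzymes, and Timp3 also stays bound to the matrix and inhibits some Adam and Adamts enzymes.

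The libraries hold RNA of 2 organs, heart and white fat, from male C57BL/6J mice that received the adeno-associated virus vector AAV8-GFP, which encodes green fluorescent protein, or AAV8-F11, which encodes coagulation factor XI. Every group was on the same fat-rich food plus l-NAME, which blocks nitric oxide production, during 7 weeks, and tissue was taken at an age of 15 weeks. The comparisons hold no group on normal food or without a vector. The vector's promoter is not given in the sources used here, nor are links between heart and adipose libraries of 1 mouse. The comparisons used 6 GFP and 7 F11 heart libraries, and 8 GFP and 8 F11 adipose libraries, each named by the number in its title (L1, L2 and so on). The labels do not say that each library is a separate mouse, so the p-values below rest on a spread between libraries that may be technical.

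Library totals, in units of 1e6 estimated counts, were 25.75 to 33.02 in heart and 15.95 to 26.33 in adipose tissue. The gene F11 itself had at most 0.351 CPM (counts scaled to a library total of 1e6) in any heart library. In adipose tissue its median was 0.475 CPM with GFP (0.0 to 4.69) and 5.93 CPM with F11 (0.514 to 16.1), with overlapping ranges. The tissue labels were checked with marker lists. The 7 cardiomyocyte markers summed to at least 41590 CPM in every heart library, and the 7 adipocyte markers to at least 7537 CPM in every adipose library. Adipose libraries L140 (GFP) and L142 (F11) stood apart. L140 held 8251 CPM of cardiomyocyte markers, against at most 171.2 CPM in the other adipose libraries, and L142 held 3793 CPM of the 8 epididymis markers, against at most 12.24 CPM. The 5 hepatocyte markers ranged from 11.95 to 4665 CPM among adipose libraries. Values without L140 and L142 are given beside the main adipose results.

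The sequences below show what separates the enzymes from the inhibitors and Adamts-like proteins. In the zinc-binding motif of these enzymes, 3 histidines hold the catalytic zinc and a glutamate takes part in catalysis. The coding sequences of members were searched in frame for that spacing. The codons of the 3 histidines and the glutamate are in capitals, 5′ to 3′, from GENCODE transcripts of GRCm38, for 9 enzymes on which the results below turn.
Mmp2: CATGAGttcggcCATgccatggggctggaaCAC
Mmp14: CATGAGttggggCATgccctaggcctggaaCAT
Mmp15: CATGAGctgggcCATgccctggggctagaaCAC
Mmp19: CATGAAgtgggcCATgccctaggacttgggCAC
Adam8: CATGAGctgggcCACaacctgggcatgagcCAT
Adam10: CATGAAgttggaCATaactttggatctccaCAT
Adam17: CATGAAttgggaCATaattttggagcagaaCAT
Adam19: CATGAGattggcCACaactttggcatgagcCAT
Adamts5: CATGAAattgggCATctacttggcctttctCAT

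All 21 Mmp members, all 19 Adamts members and 20 of 33 Adam members had these codons, while none of the 5 Adamtsl and none of the 4 Timp members did. Of all 21817 protein-coding genes of the table with a coding sequence, 96 had them (0.44%), and 60 of these were members. The 13 Adam members without the codons include Adam11, Adam22 and Adam23, adhesion proteins of neurons, and Adam7, a protein of the epididymis. No match says only that these codons are not in the annotated transcripts.

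Detection differed by family. All 5 Adamtsl and all 4 Timp members passed the filter on low counts in both tissues, as did 15 of 19 Adamts, 11 of 21 Mmp and 12 of 33 Adam members. In heart 50 members and in adipose tissue 53 members were tested for a vector difference, 47 of them in both. The 26 members tested in neither tissue were 18 Adam, 7 Mmp and 1 Adamts gene, and 6 of the 82 were at 0 in every library. Several of the untested Adam genes are known from testis and sperm. The highest value among the 26, outside Adam7, Adam28 and Mmp7 in adipose tissue, was 1.35 CPM (Adam3, in a GFP adipose library).

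Levels of different genes were compared as CPM per kilobase of merged exons. In heart with GFP, the most abundant member of the Mmp family was Mmp15, a membrane-anchored enzyme, with 19.5 CPM per kilobase, followed by Mmp2, a gelatinase, with 14.3. Adam9 led the Adam family with 13.6 CPM per kilobase, ahead of Adam10, the main sheddase of Notch, with 9.56. Adamts1, a proteoglycan-cutting enzyme, led the Adamts family with 7.84, ahead of Adamts5, the main aggrecanase, with 3.51. Adamtsl5 (16.2) and Adamtsl4 (8.29), which bind fibrillin microfibrils, made up most of the Adamtsl signal. Timp2 (22.4) and Timp3 (22.1) stood at almost the same level per kilobase.

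In adipose tissue with GFP, Adam9 and Timp2 again stood first in their families, and other members led the Mmp, Adamts and Adamtsl families. Mmp19 was first among the Mmp enzymes with 37.8 CPM per kilobase, followed by Mmp2 with 23.0. Adam9 led the Adam family with 47.7, ahead of Adam8, a protease of leukocytes, with 39.1. Adamts5 (49.0) and Adamts2, a procollagen peptidase (20.9), led the Adamts family. Adamtsl4 (6.38) stood ahead of Adamtsl5 (3.29), and Timp2 (113.6) ahead of Timp3 (81.5). Some of these orders depend on the gene length used. With the longest transcript in place of merged exons, Timp3 stood ahead of Timp2 in heart (38.1 and 23.5) and in adipose tissue (140.5 and 119.3). Adam15 then came second to Adam9 in heart (12.3) and first in adipose tissue (54.4, ahead of Adam8 with 49.5), and Adamts10 came second to Adamts1 in heart (5.51).

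In heart, the vector comparison asks which members differ with F11. Timp3 rose and Adam19 and Mmp14 fell with F11, and these were the 3 of 50 tested members past an adjusted p of 0.05. That is 6.0% of the tested members, beside 0.872% of all 14684 genes tested (0.518% higher and 0.354% lower). For each of the 3 genes, all F11 libraries lay on one side of all GFP libraries, which held for 3 of 50 members and 1.1% of all genes. In bulk tissue, a change in the number of cells of a type and a change of RNA per cell cannot be told apart.

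Timp3 (chr10:86300372-86349506, plus strand, GRCm38) had 153.9, 182.6 and 193.8 CPM as lowest, median and highest value in the 6 GFP hearts. In the 7 F11 hearts it had 227.3, 253.0 and 327.7 CPM. Every F11 library was above every GFP library, with the highest value in L33. Its mean was 179.9 ± 14.3 CPM with GFP (SD, n = 6) and 261.6 ± 37.9 CPM with F11 (SD, n = 7), 1.45-fold higher (log2 0.54, SE 0.09, adjusted p = 0.0048). The call held when any 1 library was left out (adjusted p of at most 0.0199), and was lost in a fit that pools the spread over both tissues (adjusted p = 0.41).

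Adam19 (chr11:46055992-46147343, plus strand), a membrane protease known from heart development and neuregulin shedding, had 51.4, 60.1 and 66.5 CPM as lowest, median and highest value in GFP hearts. In F11 hearts it had 26.2, 35.7 and 46.6 CPM. The groups did not overlap, and L40 and L33 were the lowest. Its mean was 59.1 ± 6.05 CPM with GFP (SD, n = 6) and 36.3 ± 7.68 CPM with F11 (SD, n = 7), so it fell by 0.70 on the log2 scale (SE 0.13, adjusted p = 0.0229). The adjusted p rose past 0.05 without L1, L2, L5, L9 or L35 (up to 0.0562), with no filter on low counts (0.0536) and in the fit over both tissues (0.13).

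Mmp14 (chr14:54431612-54445364, plus strand), a membrane-anchored collagenase that also activates the Mmp2 precursor, had 13.9, 15.0 and 16.1 CPM as lowest, median and highest value in GFP hearts. In F11 hearts it had 11.2, 12.3 and 13.8 CPM. The highest F11 value lay just under the lowest GFP value. Its mean was 15.0 ± 0.907 CPM with GFP (SD, n = 6) and 12.4 ± 1.01 CPM with F11 (SD, n = 7), so it fell by 0.27 on the log2 scale (SE 0.06, adjusted p = 0.0274). The adjusted p rose past 0.05 without L1, L2, L8, L31, L33, L36 or L39 (up to 0.0744) and in the fit over both tissues (1.0). Heart library L2 held 153.8 CPM of hepatocyte markers and L8 the fewest atrial transcripts (61.8 CPM), and without these libraries Timp3 alone was called (adjusted p = 0.0231, against 0.0725 for Adam19 and 0.122 for Mmp14), while the log2 fold changes were 0.51, −0.72 and −0.24.

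**Figure D1:**
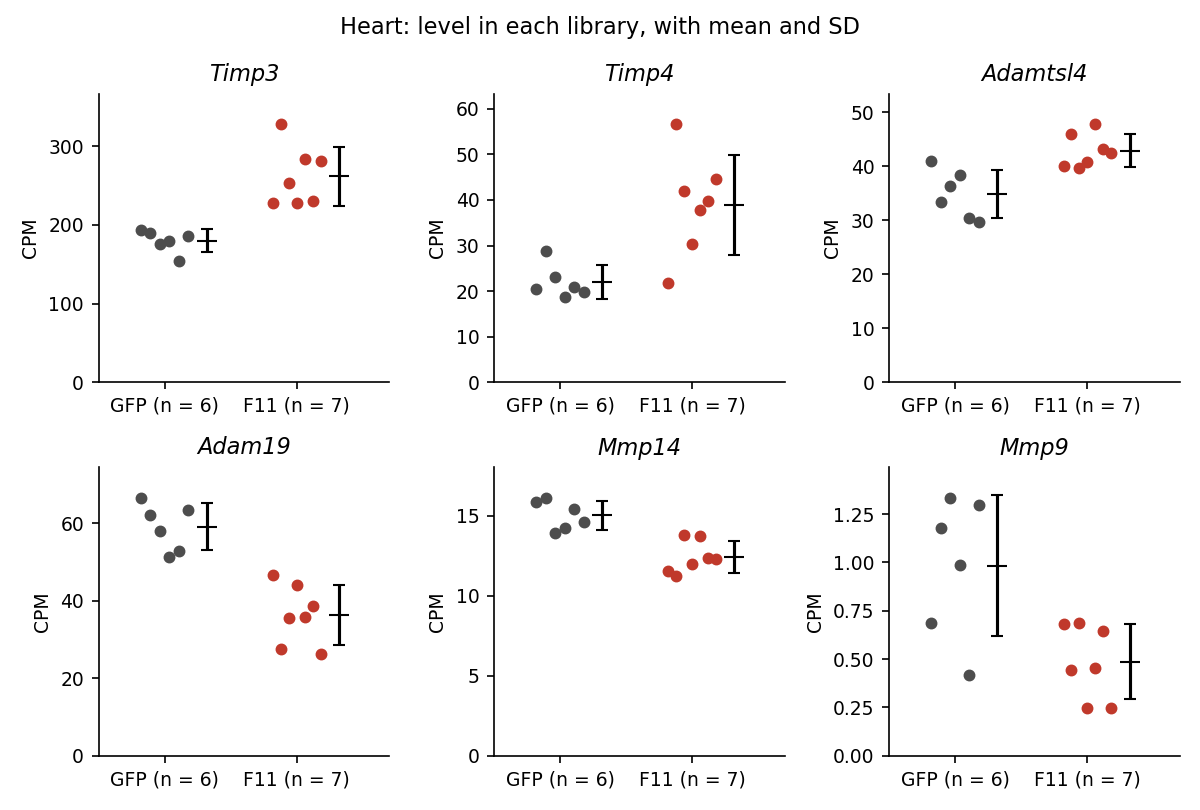
Level in CPM (vertical axes, from 0) of 6 members in each heart library, with GFP in grey and F11 in red, and the mean with its SD beside each group. Timp3, Adam19 and Mmp14 do not overlap between the groups, while Timp4, Adamtsl4 and Mmp9 do.

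Other members had differences that missed the threshold. Timp4, the inhibitor known for its high level in heart, had 18.8, 20.7 and 28.8 CPM as lowest, median and highest value with GFP. With F11 it had 21.8, 39.8 and 56.6 CPM, and the groups overlapped through L31. The log2 fold change was 0.83 (SE 0.19, adjusted p = 0.0774). It passed with DESeq2 (adjusted p = 0.00181), with limma voom and sample weights (0.0438) and without L31 (0.0102). Adamtsl4 averaged 34.8 ± 4.48 and 42.8 ± 3.06 CPM (log2 0.30, SE 0.07, adjusted p = 0.0614) and passed with DESeq2 (adjusted p = 0.00884) and without L1 (0.0189). Mmp9, a gelatinase of neutrophils and macrophages, averaged 0.984 ± 0.366 and 0.487 ± 0.193 CPM, with overlapping groups (log2 −1.01, SE 0.29, adjusted p = 0.118, and 0.0462 without L8). Among the Adamts enzymes, Adamts7 had a log2 of 0.26 (adjusted p = 0.12, and 0.0343 without L5), and Adamts4, an aggrecanase, of −0.68 (adjusted p = 0.122), with overlapping groups for both.

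By family, 11 of 12 tested Mmp members had a negative log2 fold change in heart (median −0.15), as did 11 of 13 Adam members (median −0.10) and 10 of 16 Adamts members (median −0.06). All 5 Adamtsl members were positive (median 0.25), and of the Timp family Timp3 and Timp4 were positive while Timp1 (−0.37) and Timp2 (−0.06) were negative. Of all 14684 genes, 7711 were negative and the median was −0.01. An unadjusted p under 0.05 was reached by 15 of the 50 tested members (30.0%) and by 12.5% of all genes. Mmp15 and Mmp2, the most abundant Mmp members in heart, had log2 fold changes of 0.00 (SE 0.06) and −0.02 (SE 0.06), and the sheddases Adam10 and Adam17 of −0.08 (SE 0.06) and −0.06 (SE 0.04). Of 38 tested members with the zinc-binding codons, 9 had a positive value (median −0.08), and of 12 without them 7 did (median 0.07).

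**Figure D2:**
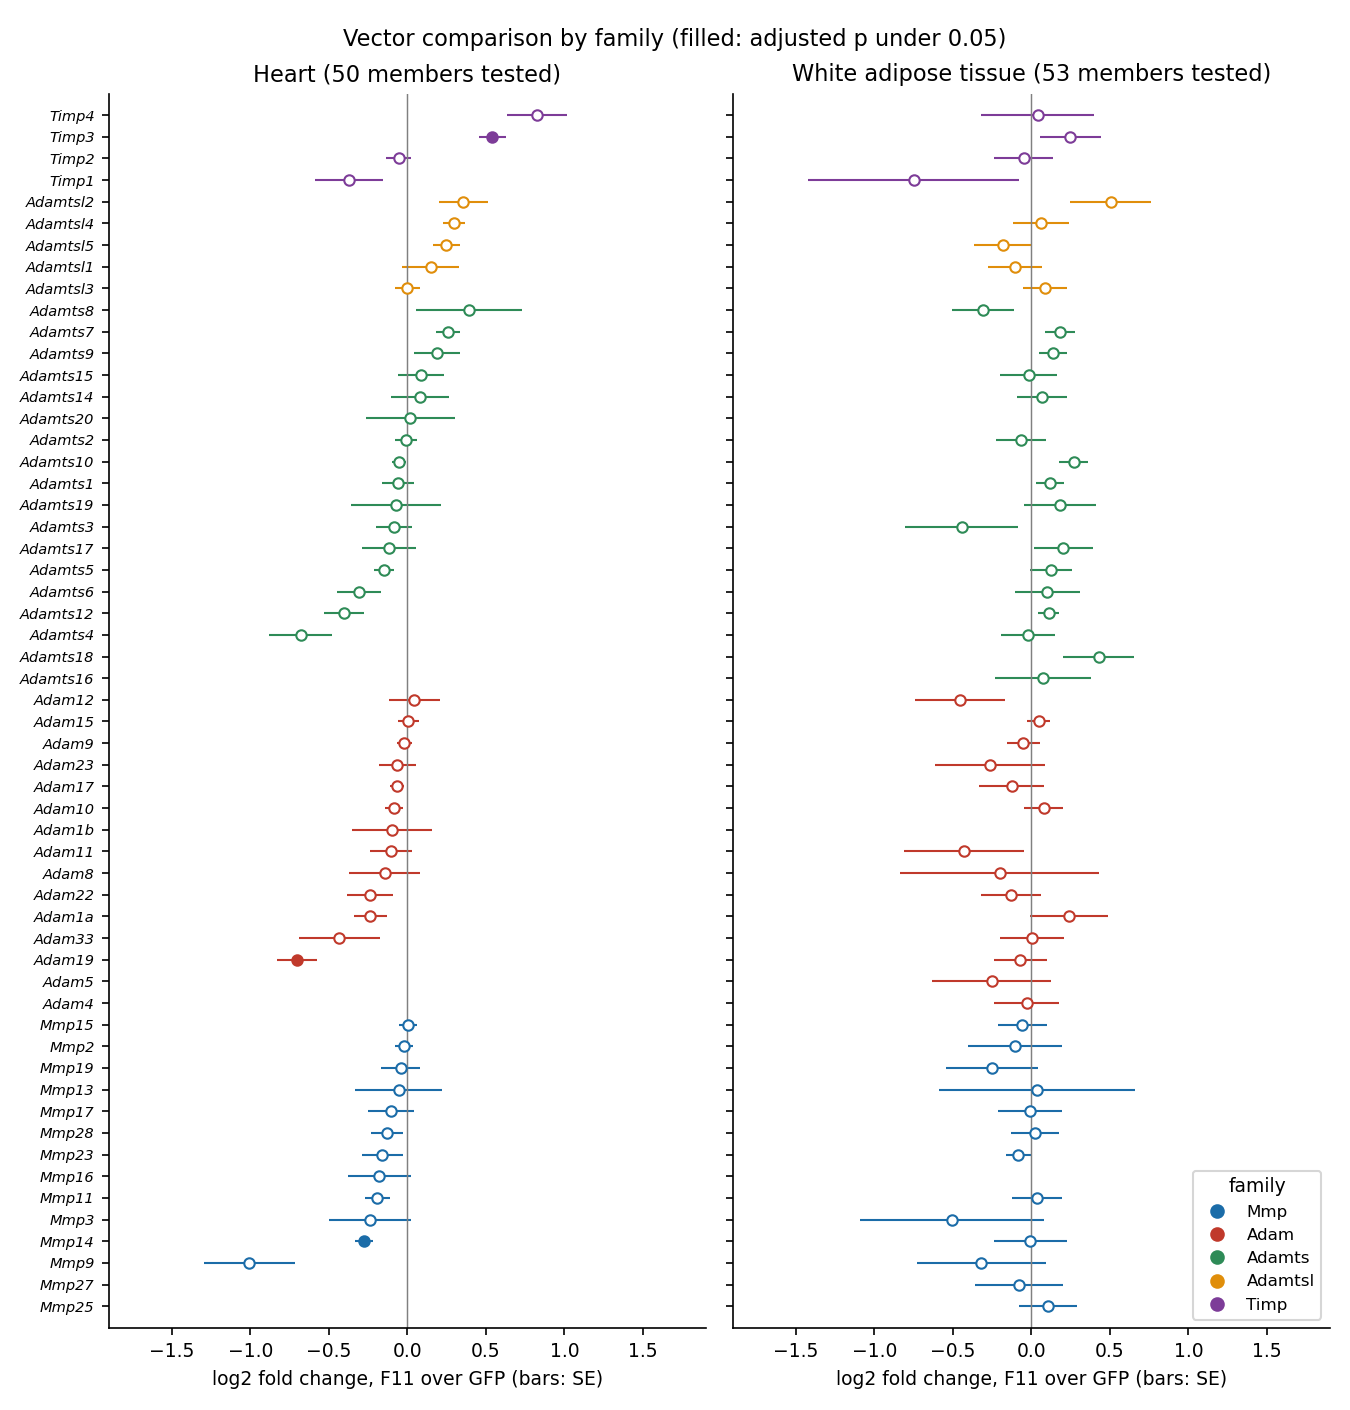
Log2 fold change of F11 over GFP (horizontal axes) with its SE for every tested member, in heart at left and adipose tissue at right, coloured by family and ordered by the value in heart. Filled points mark the 3 members past the threshold in heart, and no adipose point is filled.

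Transcripts of each family were also summed per kilobase, as a description of their balance. The summed Adam level was 47.3 to 49.8 CPM per kilobase with GFP and 41.2 to 46.6 with F11 in heart, without overlap. Adam19, called above, went from a mean of 8.30 to 5.10 CPM per kilobase, so the Adam sum is not a result separate from Adam19. The summed Adamtsl level was 23.0 to 29.2 and 29.5 to 35.2. The summed Timp level was 49.5 ± 4.56 CPM per kilobase in GFP hearts (SD, n = 6) and 61.3 ± 7.44 in F11 hearts (SD, n = 7). Its ranges, 41.71 to 54.3 and 54.15 to 73.95, overlapped slightly. The summed Mmp level was 44.5 ± 2.71 and 43.0 ± 1.34, also with overlap. The ratio of Timp to Mmp was 1.11 ± 0.0750 with GFP (0.964 to 1.18) and 1.43 ± 0.181 with F11 (1.24 to 1.76), without overlap. Timp3, already called on its own, went from 22.1 to 32.1 CPM per kilobase and made up 52.4% of the Timp sum with F11. Timp2 went from 22.4 to 21.5, so the ratio is not a result separate from Timp3. Lengths of the longest transcripts in place of merged exons gave ratios of 1.32 and 1.77. In adipose tissue the ratio was 2.14 ± 0.592 with GFP (SD, n = 8) and 2.53 ± 0.721 with F11 (SD, n = 8), with overlapping ranges, and 2.17 ± 0.634 and 2.62 ± 0.737 without L140 and L142 (SD, n = 7 each).

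Other transcripts moved with the vector in heart, and their part in these results was not tested. The summed 7 cardiomyocyte markers were at 41590 to 44070 CPM with GFP and 47290 to 53350 CPM with F11, without overlap. All 7 were positive (median log2 0.09), and 1 of them (Myh6) was called. Myh6 makes up a large part of this sum, with 22380 to 25560 CPM with GFP and 26790 to 30740 CPM with F11. The 8 mesothelial markers summed to 11.6 to 19.9 and 5.07 to 12.2 CPM, and all 7 tested were negative (median log2 −1.14, none called). The 5 tested adipocyte markers were also negative (median log2 −1.46, none called, 3 with an unadjusted p under 0.05), and the list of 7 summed to 52.2 to 77.9 and 47.4 to 75.8 CPM. The 7 atrial markers were negative too (median log2 −0.37, none called), with sums of 61.8 to 3221 and 300.1 to 2826 CPM. The 9 fibroblast markers (637.0 to 830.0 and 642.7 to 763.8 CPM) and the 8 macrophage markers (158.7 to 205.6 and 137.7 to 192.8 CPM) overlapped, with none of either list called. No marker of these 6 lists was at 0 in all heart libraries of a group. Arntl, a transcription factor of the circadian clock, ranged from 9.21 to 13.1 CPM with GFP and from 2.38 to 5.11 CPM with F11 (log2 −1.68, adjusted p = 0.000139).

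The promoters of the called members are shown because these genes moved in heart. They are the bases just before the gene start, from the RefSeq promoter table of GRCm38.p6, which holds 51 of the 82 members, with motif matches in capitals.
Timp3, chr10:86300162-86300371, plus strand: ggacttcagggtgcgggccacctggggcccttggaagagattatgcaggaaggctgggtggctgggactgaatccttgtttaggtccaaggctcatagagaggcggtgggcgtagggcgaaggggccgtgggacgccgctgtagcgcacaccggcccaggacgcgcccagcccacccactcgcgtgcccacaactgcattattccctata
Adam19, chr11:46055734-46055983, plus strand: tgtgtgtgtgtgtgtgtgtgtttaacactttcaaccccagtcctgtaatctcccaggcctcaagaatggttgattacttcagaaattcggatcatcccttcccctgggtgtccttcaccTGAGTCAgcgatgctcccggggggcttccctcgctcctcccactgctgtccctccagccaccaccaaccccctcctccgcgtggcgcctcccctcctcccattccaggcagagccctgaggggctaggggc
Mmp14, chr14:54431348-54431597, plus strand: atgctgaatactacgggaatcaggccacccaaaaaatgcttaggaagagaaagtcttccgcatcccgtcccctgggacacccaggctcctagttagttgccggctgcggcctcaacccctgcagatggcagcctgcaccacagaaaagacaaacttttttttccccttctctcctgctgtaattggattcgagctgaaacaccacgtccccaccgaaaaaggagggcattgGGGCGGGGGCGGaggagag

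The motifs searched, on both strands and none contained in another, were the E-box CACGTG of clock factors, the AP-1 motif TGANTCA, the GC box GGGCGG, the TATA box TATAAA and the nuclear receptor motif AGGTCA. Adam19, which has 3 starts in the table, held 1 AP-1 match, a motif in 6.75% of all 32851 promoters over the same 250 bases. Mmp14 held 2 GC boxes that adjoin, a motif in 32.7% of promoters. The 210 bases of Timp3 held none of the 5, and no E-box was in any of the 3 windows (6.02% of promoters over 250 bases and 4.65% over 210). A match is a description of letters, not a site in use.

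Gene overlaps limit some of these values, since the strand setting of the counting is not given in the sources used here and reads of opposite genes cannot then be told apart. Timp3 lies inside Syn3 on the opposite strand, and 21.3% of its exon bases are shared with it. Syn3 averaged 0.7 CPM with GFP and 1.02 CPM with F11 in heart (log2 0.54, adjusted p = 0.153), beside 153.9 CPM or more of Timp3. Timp4 lies inside Syn2 in the same way, with 1.53% of its exon bases shared. Adam19 shares 8.25% and 6.75% of its exon bases with 2 antisense genes, Gm16033 and Gm16034, that are not used here. Mmp19 shares 22.3% of its exon bases with Tmem198b on the opposite strand. With GFP, Tmem198b averaged 4.94 CPM in heart and 17.9 CPM in adipose tissue, beside 2.36 and 133.5 CPM of Mmp19.

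Genes that act with the members did not pass in heart. None of 16 tested activators and cofactors was called, and the lowest p was that of Tspan15, a tetraspanin partner of Adam10 (log2 −0.20, adjusted p = 0.315). Of 10 other inhibitors and clearance genes, none was called. Of 12 other matrix proteases, none was called, and Ctss, a cathepsin, had the lowest p (log2 −0.24, adjusted p = 0.357). Among 15 matrix substrates, none was called, and Eln, which encodes elastin, had a log2 of −0.34 (adjusted p = 0.137). Among 15 shed membrane substrates, none was called, and Notch1 had a log2 of 0.21 (adjusted p = 0.0951). The medians of these 5 lists lay between −0.03 and 0.00.

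In adipose tissue, the vector comparison found no called member among the 53 tested with edgeR, where 0.0% of all 15229 genes were called. Of the members, 1 had an unadjusted p under 0.05 (1.89%), beside 4.19% of all genes, and no member was called with DESeq2 or limma voom. Adamts10, an enzyme of fibrillin microfibrils, had 51.3 to 70.8 CPM with GFP and 56.6 to 82.5 CPM with F11 (log2 0.27, SE 0.09, unadjusted p = 0.0107, adjusted p = 0.9996). Adamtsl2 and Adamts18 followed, with log2 fold changes of 0.50 (SE 0.26) and 0.43 (SE 0.23). Among the inhibitors, Timp1 averaged 15.9 ± 14.3 CPM with GFP and 9.49 ± 10.3 CPM with F11 (log2 −0.75, SE 0.67), while Timp2 and Timp4 had log2 fold changes of −0.05 (SE 0.19) and 0.04 (SE 0.36). Timp3 went from 663.4 ± 184.4 to 785.8 ± 219.4 CPM (log2 0.25, SE 0.19). The members that fell in heart were close to 0 here, with Adam19 going from 35.1 ± 8.86 to 33.4 ± 8.43 CPM (log2 −0.07, SE 0.17) and Mmp14 from 75.8 ± 25.2 to 75.3 ± 27.9 CPM (log2 −0.01, SE 0.23), each with overlapping groups (SD, n = 8 and 8). By family, 12 of 17 Adamts members were positive (median 0.11), against 4 of 13 Mmp (median −0.06), 4 of 14 Adam (median −0.10), 3 of 5 Adamtsl and 2 of 4 Timp members. Of all genes, 7580 of 15229 were positive. Without L140 and L142 no member was called either, and Adamts10 had a log2 of 0.28 (adjusted p = 0.815).

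The spread between adipose libraries of 1 group was wide for several members. With GFP, Adam8 ranged from 11.7 to 397.7 CPM, Timp1 from 2.29 to 44.0 CPM and Mmp19 from 57.1 to 208.8 CPM. With F11 the same genes ranged from 28.1 to 478.4, 1.75 to 31.9 and 57.6 to 208.0 CPM. The lowest GFP value of each of the 3 genes was that of L140, and without it the lowest were 62.9, 3.81 and 82.3 CPM. The 8 macrophage markers ranged from 829.1 to 4182 CPM with GFP and from 1082 to 4423 CPM with F11, and from 1342 and 1145 CPM upwards without L140 and L142.

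The 53 tested members were compared with the summed macrophage markers over the 16 adipose libraries, on log2(CPM + 0.5), a relation chosen after the values were seen. Of 53 members, 26 had both a Pearson and a Spearman adjusted p under 0.05 (permutation tests of 100000 draws, two-sided, adjusted over all 15221 genes), with 19 positive and 7 negative. Of all genes, 6090 of 15221 passed the same rule, so such a relation was common. The positive members were 35.8% of the 53, beside 21.7% of all genes, and the negative ones 13.2%, beside 18.3%. Adam8 had r = 0.985 and rho = 0.968, and Mmp19 r = 0.979 and rho = 0.938. The permutation p of r was 1e-05 for each of the pair, the smallest possible, and the adjusted p was 0.000123. Adam17, the sheddase of tumour necrosis factor, had r = 0.957, Timp2 r = 0.944, Mmp3, a stromelysin, r = 0.937, Timp1 r = 0.920 and Mmp14 r = 0.855.

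Timp4 and Timp3 ran the other way, with r = −0.713 (rho −0.700, permutation p = 0.0024, adjusted p = 0.00836) and r = −0.581 (rho −0.629, permutation p = 0.020, adjusted p = 0.0457). Mmp15 had r = −0.790 and Adam11 r = −0.728. By family, the 19 positive relations were 7 Adam, 6 Mmp, 4 Adamts and 2 Timp members. All 26 kept their sign within the 8 GFP and within the 8 F11 libraries. L140 and L142 were also the 2 libraries farthest from the median of the marker sum, and without them all 26 had an r of at least 0.466 in size (Timp3 −0.827, Timp4 −0.798).

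Other cell type markers varied with the macrophage sum in the same libraries, and the part of each list was not tested. The fibroblast sum had r = 0.906 with the macrophage sum (rho 0.938, permutation p = 1e-05, adjusted p = 4e-05 over 4 lists, and r = 0.916 without L140 and L142). The adipocyte sum had r = −0.595 (rho −0.641, permutation p = 0.013, adjusted p = 0.0271, and −0.785 without them). The endothelial sum had r = −0.538 (rho −0.544, permutation p = 0.033, adjusted p = 0.0438, and −0.844 without them), and the mural sum r = −0.376 (rho −0.371, permutation p = 0.15, adjusted p = 0.151, and −0.575 without them). The hepatocyte sum was not correlated here. It was highest in L136, L145 and L146 (4665, 4333 and 2369 CPM), where the macrophage sum was 1342, 1145 and 1224 CPM. L133 and L148, with the highest macrophage sums (4182 and 4423 CPM), held 49.5 and 56.5 CPM of it. L140 and L142, with the lowest (829.1 and 1082 CPM), held 46.8 and 69.1 CPM. Its part in the members' correlations was not tested. A correlation across libraries does not show which cells hold a transcript.

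**Figure D3:**
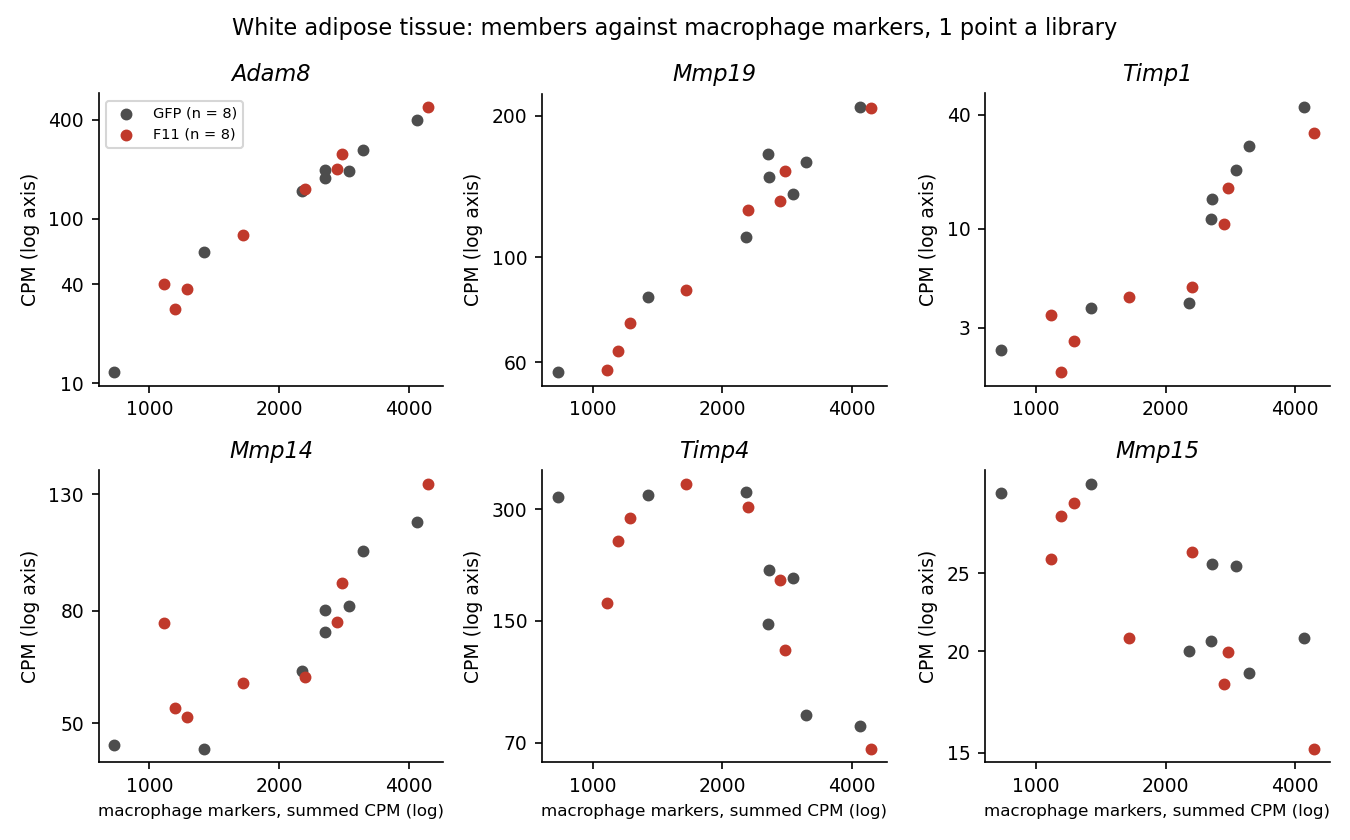
Level of 6 members (vertical axes, CPM, log scale) against the summed CPM of 8 macrophage markers (horizontal axes, log scale) in 16 adipose libraries, GFP in grey and F11 in red. Adam8, Mmp19, Timp1 and Mmp14 are higher, and Timp4 and Mmp15 lower, in libraries with more macrophage transcripts.

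Adam7 and Adam28 were not tested for the vector in adipose tissue, since they failed the filter. Adam7 had 0.0 to 3.30 CPM in the 8 GFP libraries, and 0.0521 to 7.47 CPM in 7 F11 libraries, but 2992 CPM in L142. Adam28 had 0.0552 to 0.404 CPM with GFP, and 0.0570 to 3.94 CPM in the same 7 F11 libraries, but 728.2 CPM in L142. In each case the next value was that of L143, which also had the next highest sum of epididymis markers (12.2 CPM). The genes are neighbours on chromosome 14 (chr14:68497336-68533741 and chr14:68606027-68655842, both on the minus strand), 72285 bases apart with 1 protein-coding gene, Adamdec1, between. L142 took the summed Adam level of F11 adipose libraries to 908.3 CPM per kilobase. Without it, the sum was 175.5 ± 49.0 (SD, n = 7), and 188.1 ± 34.1 with GFP without L140 (SD, n = 7). Mmp7, matrilysin, was likewise uneven, with 15.7, 36.9 and 32.2 CPM in GFP libraries L135, L138 and L140 and 28.8 CPM in L142, and at most 0.267 CPM in the other 12.

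**Figure D4:**
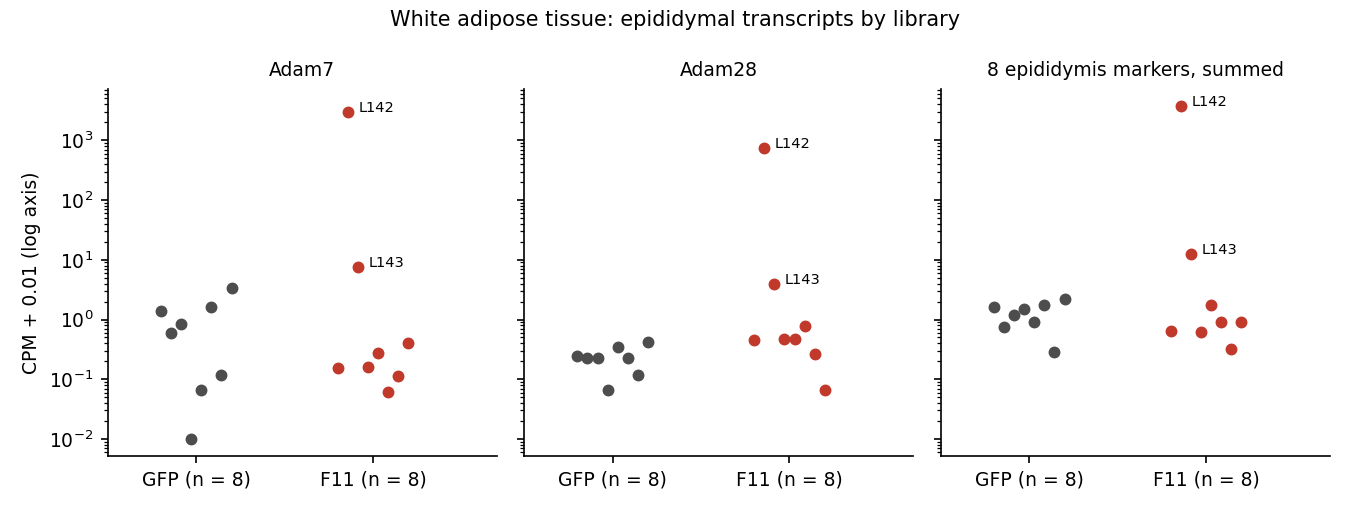
CPM + 0.01 on a log axis for Adam7, Adam28 and the summed epididymis markers in each adipose library, GFP in grey and F11 in red. L142 stands apart in all 3 panels, at 2992, 728.2 and 3793 CPM, with L143 next.

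The activator, inhibitor, protease and substrate lists gave no call in adipose tissue (17, 10, 12, 16 and 13 genes tested, medians between −0.09 and 0.07). The lowest p in each list belonged to Tspan33 (log2 −0.44), Serpine2 (−0.16), Htra3 (0.18), Vcan, which encodes versican (−0.26), and Tnfrsf1a (−0.08), all with an adjusted p of 0.9996.

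The tissue comparison set adipose tissue against heart, separately in GFP and in F11 libraries, which share no sample. Of 53 members tested in both, 45 were called in the same direction in both, 29 higher in adipose tissue and 16 higher in heart, while 3 were called in 1 of the contrasts, 5 in neither and none in opposite directions. With GFP 47 of 53 members were called (88.7%), 29 higher in adipose tissue and 18 in heart, beside 81.4% of all 15578 genes (43.6% and 37.7%). With F11 46 of 53 were called (86.8%), 30 and 16, beside 81.7% of all 15719 genes (42.8% and 38.9%), so the shares called lay near the background. Groups did not overlap for 67.9% and 66.0% of tested members, beside 60.8% of all genes in each contrast. The median log2 fold change of the tested members was 0.86 with GFP and 0.73 with F11, beside 0.09 and 0.06 for all genes.

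The families differed in direction. All 4 Timp members were higher in adipose tissue in both contrasts, and 4 of 5 Adamtsl members were higher in heart. In the Mmp family 7 of 14 tested members were higher in adipose tissue and 3 in heart. In the Adam family the counts were 8 and 3 of 13, and in the Adamts family 9 and 6 of 17.

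Values across tissues are CPM scaled jointly over all libraries of both tissues. Adam8 had 0.509, 0.726 and 1.13 CPM as lowest, median and highest value in GFP hearts and 8.61, 137.9 and 301.5 CPM in GFP adipose libraries, with a lowest value of 46.4 CPM without L140. The groups lay far apart, by 7.43 on the log2 scale with GFP (SE 0.75, adjusted p = 3.71e-07) and 7.32 (SE 0.75) with F11. Mmp19 had 2.67, 3.48 and 4.08 CPM in GFP hearts and 42.2, 105.5 and 158.3 CPM in GFP adipose libraries (log2 4.86, SE 0.30, and 4.61 with F11). Adamts16 was at or near 0 in heart, with 2 counts summed over the GFP hearts, and at 0.647 to 2.34 CPM in adipose tissue with GFP, so its fitted log2 fold change (6.01) depends on the prior count. Adam12, a protease known from muscle and fat development, and Adamts12, which cuts cartilage proteins, had log2 fold changes of 4.71 and 3.15 with GFP, and 4.16 and 3.62 with F11.

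In the other direction, Adamtsl5 had 93.1, 112.5 and 126.7 CPM in GFP hearts and 7.37, 10.8 and 17.8 CPM in GFP adipose libraries (log2 −3.25, SE 0.17, adjusted p = 2.72e-10, and −3.73 with F11). Mmp15 had 132.7, 155.1 and 167.4 CPM in GFP hearts and 14.3, 17.3 and 23.8 CPM in GFP adipose libraries (log2 −3.07, SE 0.12, and −3.18 with F11). Both were separated without overlap. Mmp16, another membrane-anchored enzyme, had log2 fold changes of −3.08 and −3.27 (called in both), at a mean of 0.714 CPM in GFP hearts on the within-heart scale. Among members with a mean of at least 1 CPM in a group, Adamts3, a procollagen peptidase, Adam11 and Adamts19 followed, with log2 fold changes of −2.86, −2.46 and −1.99 with GFP and −3.27, −2.83 and −1.79 with F11.

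Among the inhibitors, Timp1 had 1.01 to 1.87 CPM in GFP hearts and 1.69 to 33.4 CPM in GFP adipose libraries, which overlapped (log2 2.86, SE 0.63, adjusted p = 0.000783). Timp4 was higher in adipose tissue by a log2 of 2.31 (SE 0.34) with GFP and 1.47 (SE 0.30) with F11, Timp2 by 1.39 and 1.35, and Timp3 by 0.92 and 0.58. Adam19 was higher in heart, by a log2 of −1.70 (SE 0.16) with GFP and −1.12 (SE 0.16) with F11. Mmp14 was higher in adipose tissue by 1.38 and 1.60.

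**Figure D5:**
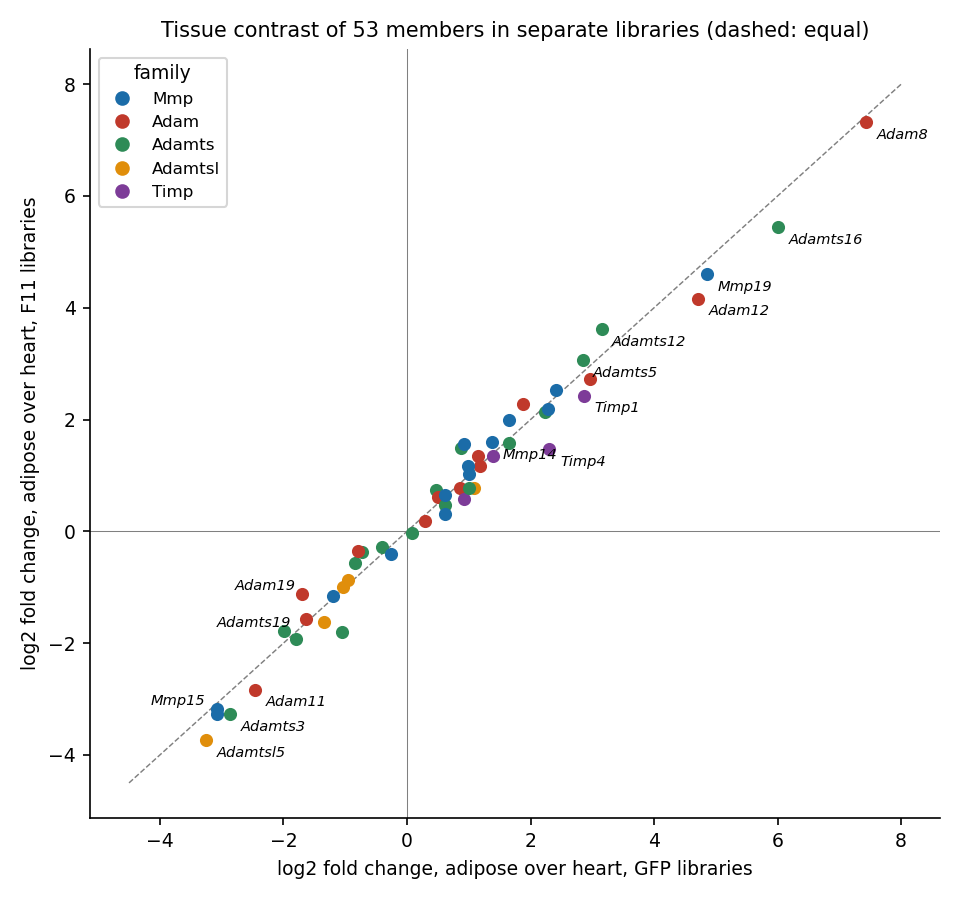
Log2 fold change of adipose tissue over heart in the GFP libraries (horizontal axis) and in the F11 libraries (vertical axis) for the 53 members tested in both, coloured by family. The points lie near the dashed line of equal values, with Adam8 at the upper end (7.43 and 7.32) and Adamtsl5 at the lower (−3.25 and −3.73).

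These tissue values depend on the scaling. Mitochondrial transcripts took 31.6 to 34.6% of counts in heart and 3.89 to 11.1% in adipose tissue, and their part in this was not tested. With library totals in place of TMM scaling, the median of all genes moved from 0.09 to 1.02 with GFP and from 0.06 to 1.09 with F11. The share of called members that were higher in adipose tissue went from 61.7% to 78.3% with GFP and from 65.2% to 79.6% with F11. Over all genes it went from 53.6% to 82.5% and from 52.3% to 83.3%, so the members' share stood above that of all genes with TMM and below it without. Adamts1 then turned from −0.41 to 0.53 with GFP and from −0.28 to 0.75 with F11, and Mmp2 from −0.27 to 0.67 and from −0.40 to 0.63. Without L140, 31 members were higher in adipose tissue and 18 in heart with GFP, against 29 and 18 with it. Without L142, 30 and 16 were called with F11, as with it. Adipocyte markers (7 of 7 called in both contrasts) and macrophage markers (8 of 8) were also higher in adipose tissue, and their part in the members' values was not tested.

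The difference of the vector effect between tissues was tested over all libraries. No member of 57 tested was called, beside 0.0242% of all 16526 genes, and 4 members had an unadjusted p under 0.05, beside 7.43% of all genes. The 57 include Adam7, at 0.0 CPM in every heart library and high in L142, whose fit has no usable SE (175800). Adamts12 had the lowest p, with a log2 difference of adipose minus heart of 0.50 (SE 0.14, unadjusted p = 0.00143, adjusted p = 0.289, and 0.0473 with DESeq2). Its heart values were 2.51 to 4.77 CPM (GFP) and 2.24 to 3.03 CPM (F11), beside 51.3 to 68.9 CPM in GFP and 57.9 to 68.5 CPM in F11 adipose libraries. Adamts10 and Adam19 followed, with a difference of 0.31 (SE 0.11, adjusted p of 0.446) for the first, and of 0.62 (SE 0.24, adjusted p of 0.479) for the other. The calls of Timp3, Adam19 and Mmp14 in heart are therefore not shown to differ from adipose tissue.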

How the data were processed

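Per the labels' protocols, total RNA (miRNeasy) went into Nugen Universal Plus mRNA libraries read on a NovaSeq. The deposited values are estimated counts per gene. The submitters' processing notes name kallisto 0.46 and the build GRCm38.p6. The sources used here do not give the annotation release, the strand setting or how transcripts were summed, and 30.8% of values were not whole. Symbols came from GENCODE M21 for 35935 of 36558 IDs. The labels name 30 libraries. The count table holds 29 of them, all analysed, and has no values for L10 (heart, GFP). No 2 libraries of a group agreed within sampling noise (lowest chi-square per degree of freedom 3.36).

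Rounded counts were tested with edgeR 4.0.16 in R 4.3.3 (filterByExpr, TMM, robust quasi-likelihood test, two-sided, Benjamini-Hochberg adjusted p under 0.05 over all genes tested), by tissue for the vector, by vector for the tissue, and over all libraries for their interaction. CPM are TMM-scaled over all genes. The fits were tested on simulated data. Alternatives were RLE size factors, no filter or a mean of 1 CPM, DESeq2 1.42.0, limma 3.58.1 voom with sample weights, a fit over all libraries, no TMM, mitochondrial genes left out, other gene lengths and each library left out. Leaving out L140 and L142, or heart libraries L2 and L8, was chosen after seeing the data. Named members were those called by vector or interaction (otherwise the 3 lowest p), the 5 largest tissue differences each way (called in both contrasts, mean of at least 1 CPM in a group), the 2 most abundant per family and tissue, the Timp genes, Mmp2, Mmp9, Mmp14, Adam10 and Adam17, and the lowest p of each partner list, of which 1 in heart is not reported here. Adam3, Adam7, Adam15, Adam22, Adam23, Adam28, Adamts4, Adamts7, Mmp3, Mmp7 and Mmp16, and the correlation with macrophage markers, were chosen after values were seen. The members and lists were chosen with earlier results of these data known.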

Additional observations from a re-analysis of the deposited data

Results flagged for a closer look

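Among 116 sets of libraries (a named member in 1 group), 10 had a library far from the rest by Dixon's criterion, where chance gives about 5%. The flags of Adam7 and Adam28 do not bear on that 5%, since both genes were chosen after their values were seen. In heart, F11 library L38 was high for Adam11 (18.37 CPM, next 13.74) and for Adamts19 (2.846 CPM, next 1.709), and GFP library L8 was low for Timp1 (0.6964 CPM, next 1.177). In adipose tissue, GFP library L140, which held cardiomyocyte transcripts, was low for Adamts5 (281.0 CPM, next 479.3) and high for Mmp9 (11.52 CPM, next 3.333). GFP library L136, which had the highest hepatocyte marker sum (4665 CPM), was high for Adamtsl2 (16.01 CPM, next 9.661). F11 library L148, which had the highest macrophage marker sum, was high for Adam17 (110.0 CPM, next 76.89) and Mmp14 (135.999 CPM, next 89.66). F11 library L142, which held epididymis transcripts, was high for Adam7 (2992 CPM, next 7.472) and Adam28 (728.2 CPM, next 3.942).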

How the results depend on the processing

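In heart, 1 member was called higher and 2 lower. Lower calls were 1 with no filter, 0 in the fit over all libraries and 0 without L2 and L8. Higher calls were 3 with DESeq2, 2 with limma voom and 0 in the fit over all libraries. With 1 library left out, 0 to 2 members were called lower and 1 to 2 higher in heart, 0 in adipose tissue, 28 to 31 higher in adipose tissue and 18 in heart with GFP, 30 to 31 and 16 to 17 with F11. Library totals without TMM gave 10 members higher in heart with either vector, and reversed Adamts1 (0.53 and 0.75), Mmp2 (0.67 and 0.63) and, with F11, Adamtsl2 (0.17). DESeq2 called 1 positive interaction (Adamts12). Longest transcripts moved the Timp to Mmp ratio in heart to 1.32 and 1.77. The cause was not tested. In the vector comparison of adipose tissue, uncalled values changed sign for Adam10 (−0.0646 with limma voom, −0.0416 without L140 and L142) and Mmp9 (0.0855 with limma voom, 0.276 without L140 and L142). With 1 library left out, values crossed 0 for adipose Mmp14 (−0.18 to 0.11), Mmp2 (−0.351 to 0.0481), Mmp9 (−0.48 to 0.21), Timp2 (−0.16 to 0.0341) and Timp4 (−0.0941 to 0.174), and for heart Mmp2 (−0.0639 to 0.00383). Over single members and alternatives, 1783 values kept direction and side of the threshold, 20 were weaker, 16 stronger and 31 reversed. No paired analysis was possible because the groups share no library number. Over all genes, calls in heart were 76 higher and 52 lower, against 223 and 150 with DESeq2 and 13 and 17 in the fit over all libraries. In adipose tissue they were 0, against 11 with DESeq2 and 4 in the fit over all libraries. The filter on low counts left 26 members untested in both tissues.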
